A study of Mus musculus with 12 samples.

Results

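Ier2, Ier3 and Ier5 carry the name "immediate early response" and were followed here in MC3T3-E1 cells, a clonal osteoblast-like line from mouse calvaria, under fluid shear. The members were taken from the array's annotation, as every probe whose only gene symbol was one of the 3. That gave 7 of 28704 features, 2 probes for Ier2 (Entrez gene 15936), 2 for Ier3 (15937) and 3 for Ier5 (15939), and no probe with several symbols named any of them. Total RNA came from 6 control samples, in which the confluent monolayer stayed static in the flow set-up, and 6 shear samples, exposed to pulsatile flow averaging 5 dyn per square centimetre at 1 Hz for 5 h. Cells had been grown in alpha-MEM with 5% fetal bovine serum, and the circulating medium held 1%. Both groups are the same clonal line without genetic change, only 1 time point was sampled, and whether each sample was a culture of its own is not in the labels. The p-values therefore speak of the variation among these samples only, and that variation may be technical.

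Immediate early genes are transcribed soon after a stimulus reaches the cell, without waiting for new protein to be made, and many are known to respond to mechanical load in bone cells. The shared name of these genes reflects that behaviour more than a common protein. Ier2 and Ier5 encode related nuclear proteins that act on transcription, and Ier5 is known to bind heat shock factor 1 and the phosphatase PP2A. Ier3, also called IEX-1, encodes a small membrane-associated protein that acts on cell survival, and its gene is a known target of NF-kB and p53.

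The promoters are shown for every member that had one in the reference used, whether or not its probes passed a test. The 250 bases before the start of Ier3 and Ier5 were read from RefSeq sequences (GRCm38.p6), which matched 2 of the 3 members, all but Ier2. Ier3 lies on the plus strand at chr17:35821463-35821712 and Ier5 on the minus strand at chr1:155099637-155099886. Each sequence runs 5′ to 3′ towards the start, and capitals mark the motifs CCAAT and GGGCGG on either strand.
Ier3: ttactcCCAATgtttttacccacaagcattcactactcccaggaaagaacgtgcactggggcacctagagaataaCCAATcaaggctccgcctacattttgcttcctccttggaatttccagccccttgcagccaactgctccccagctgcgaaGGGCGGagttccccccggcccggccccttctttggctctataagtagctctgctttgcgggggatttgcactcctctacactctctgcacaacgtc
Ier5: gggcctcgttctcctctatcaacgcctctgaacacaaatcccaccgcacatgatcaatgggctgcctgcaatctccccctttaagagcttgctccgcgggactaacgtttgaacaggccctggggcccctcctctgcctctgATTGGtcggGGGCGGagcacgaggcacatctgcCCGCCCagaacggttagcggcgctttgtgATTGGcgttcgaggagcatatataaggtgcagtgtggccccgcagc

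Both promoters held CCAAT at 2 places and GGGCGG at 1 place (Ier3) or 2 places (Ier5). In Ier3 CCAAT began 244 and 175 bases before the start, and in Ier5 it began 108 and 46 bases before it. Over the same 250 bases of all 32851 promoters in the table, 33.8% held CCAAT, 32.7% held GGGCGG and 11.0% held both. The CArG box (read by serum response factor) was in 1.47% of all promoters, TGACG (the core of the cyclic AMP element) in 17.8%, TGANTCA (read by AP-1) in 6.75%, GAANNTTC (part of a heat shock element) in 6.69% and TATAAA in 12.4%. None of these last 5 was found in either window, which says only that these letters are not in these bases.

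Per the labels, each sample was labelled with Cy5 (odd replicates) or Cy3 (even replicates), and 2 samples of the same condition shared an array. Consecutive replicates (1 with 2, 3 with 4, 5 with 6) were taken as the pairs, an inference from the study's design and the dyes, which makes 3 arrays per group. Between 18434 and 23790 features had a value per sample, with the fewest on the array of control replicates 3 and 4. Of 6 measured osteoblast markers, Sparc and Col1a2 were bright in both groups (mean log2 values of 5.48 and 4.40 in control), Col1a1 was at 1.65, Alpl at -1.01 and Msx2 at -1.65, and Dlx5 fell by 0.97 under shear (limma, Benjamini-Hochberg adjusted p = 0.0479). Runx2, Sp7 and Bglap were not among the genes tested. None of the tested markers of macrophages, endothelium, fat, cartilage and muscle passed, with changes from -0.68 to 0.44 on the log2 scale. Their mean log2 values in control ran from -0.92 to 1.49 for macrophages, -2.06 to 1.35 for endothelium and -1.01 to 0.75 for fat. They ran from -0.35 to 0.42 for cartilage and from -2.07 to 3.79 for muscle. Many of these were above Alpl and Msx2, so the signal levels alone do not identify the cells.

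Values are log2 signals scaled within each block of features on the array, with the sample's own median at 0. A change is shear minus control with its standard error (SE) from limma. Adjustment followed Benjamini and Hochberg across the 21883 features tested, and a probe passed when the adjusted p was below 0.05. All 7 probes were tested. Of them 3 passed, all higher under shear: both probes of Ier3 and 1 of the 3 probes of Ier5. Neither probe of Ier2 passed. Over all features 1.42% passed higher and 0.201% passed lower. The 3 arrays of a group limit what the test can show.

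**Figure D1:**
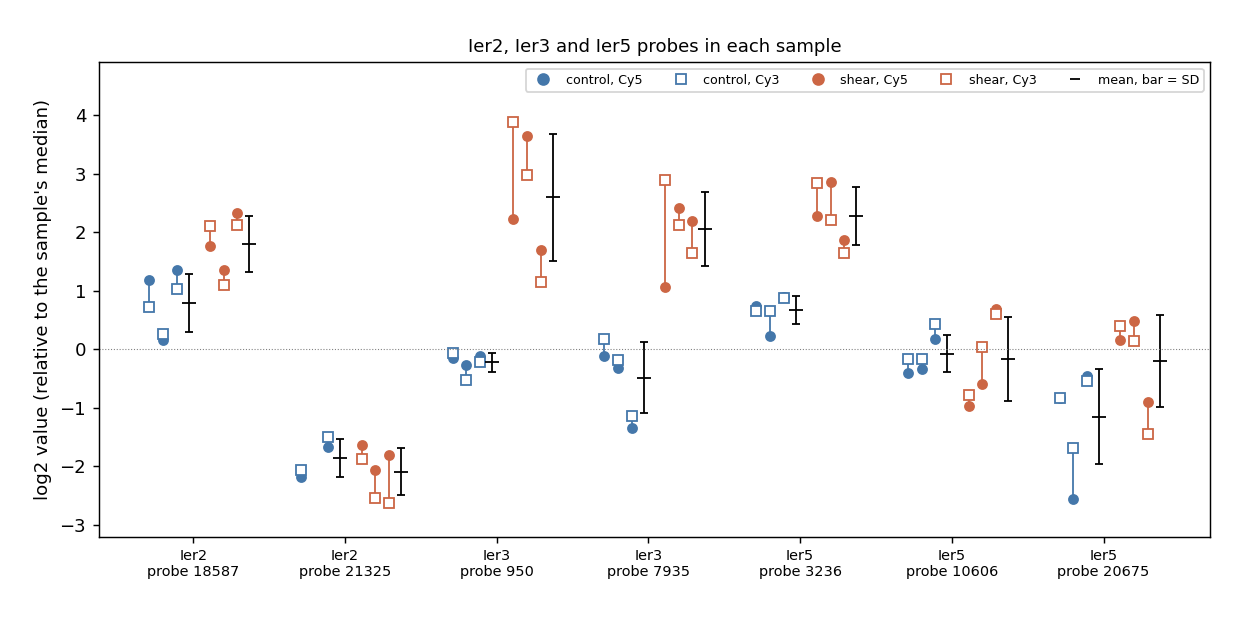
Log2 value (y axis, relative to the sample's median) of each Ier2, Ier3 and Ier5 probe in each sample, with the 2 samples of an array joined by a line, filled circles for Cy5, open squares for Cy3 and black bars for the mean and SD. Both Ier3 probes and Ier5 probe 3236 have all 6 shear samples above all 6 controls, while the groups overlap at the other probes.

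Ier3 showed the highest change of the members. At probe 950 the control samples ran from -0.53 through a median of -0.19 to -0.06 on the log2 scale, and the shear samples from 1.14 through 2.60 to 3.88. The groups did not overlap, and 1.21 log2 units lay between the highest control and the lowest shear sample. The controls were tight, with an SD of 0.16, while the shear samples spread over an SD of 1.09 (n = 6 each). In net fluorescence, the whole-number signal behind these values, the probe read 215 to 547 in control and 709 to 6722 in shear samples. The mean rose from -0.23 to 2.59, a change of 2.82 ± 0.62 (SE), which is 7.05-fold (95% interval of the log2 change 1.48 to 4.15). Limma gave adjusted p = 0.0384. This was the 15th highest change of all 21883 features, while by p the probe stood 249th.

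The second Ier3 probe, 7935, gave much the same answer. Its control samples ran from -1.34 through a median of -0.25 to 0.17, and its shear samples from 1.07 through 2.16 to 2.89. All 6 shear samples again lay above all 6 controls, by at least 0.89. The mean rose from -0.49 ± 0.61 (SD, n = 6) to 2.05 ± 0.63, a change of 2.54 ± 0.57 (SE) or 5.81-fold, with adjusted p = 0.0397 (limma). The difference in change between the Ier3 probes was 0.28, with p = 0.9 in an exact two-sided permutation test over array means. With 3 arrays a group this test cannot show that the probes are equal. Probe 950 minus probe 7935 ran from -0.15 to 1.06 over the control arrays and from -0.49 to 1.07 over the shear arrays.

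The spread within each group was not the same at the Ier3 probes. At probe 950 the control arrays were within 0.29 of one another and the shear arrays differed by 1.89. At probe 7935 it was the control arrays that differed, by 1.27, with the array of control replicates 5 and 6 lowest at -1.24, and the shear arrays were within 0.35. So shear replicates 5 and 6, whose array stood lowest for probe 950 at 1.42 against 3.05 and 3.31, stood with the others at probe 7935 (1.92 against 1.98 and 2.27).

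Ier3 also differed between samples that shared an array. On the array of shear replicates 1 and 2, replicate 2 was 3.16-fold above replicate 1 at probe 950 and 3.54-fold above it at probe 7935. These gaps were larger in size than those of 99.5% and 99.7% of the 21833 features measured in both samples. The same array gave 1.49-fold at Ier5 probe 3236, larger than 79.8% of features. On the other 5 arrays the gaps at the Ier3 probes were between 1.06-fold and 1.58-fold. Dye and sample differ together within an array, and their parts in this gap cannot be told apart. Within a dye, the changes at probe 950 were 2.70 (Cy5) and 2.94 (Cy3), and at probe 7935 they were 2.48 and 2.60, with adjusted p = 0.0573, 0.111, 0.0609 and 0.0687 (limma on 3 samples per group).

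Ier5 passed at 1 of its probes. At probe 3236 the control samples ran from 0.23 through a median of 0.70 to 0.90, and the shear samples from 1.65 through 2.24 to 2.87. The groups were apart by 0.76. The mean rose from 0.67 ± 0.24 (SD, n = 6) to 2.28 ± 0.50, a change of 1.61 ± 0.36 (SE) or 3.05-fold (95% interval 0.84 to 2.38 on the log2 scale), with adjusted p = 0.0395 (limma). Its net fluorescence was 530 to 1271 in control and 987 to 6288 in shear samples. These ranges overlap, and the median net fluorescence over all features ran from 243 to 868 between samples.

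Ier5 probe 20675 lay on the same side without passing. Its control samples ran from -2.56 through a median of -0.83 to -0.45 and its shear samples from -1.44 through 0.15 to 0.48. Of the shear samples 4 lay above every control, and replicates 5 and 6 lay within the control range. The change was 0.96 ± 0.50 (SE; 95% interval -0.12 to 2.03), with adjusted p = 0.410 (limma). It was 0.47 without control replicates 3 and 4, the array with the fewest measured features, where this probe was lowest at -2.12, and 1.45 without shear replicates 5 and 6.

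Ier5 probe 10606 did not move with the others. Its control samples ran from -0.40 through a median of -0.17 to 0.44, and its shear samples from -0.98 through -0.28 to 0.70. The shear samples lay on both sides of the controls, 3 below all of them and 2 above. The change was -0.09 ± 0.34 (SE; 95% interval -0.82 to 0.64), with adjusted p = 0.936 (limma). It was 0.26 without shear replicates 1 and 2 and 0.10 without control replicates 5 and 6. The change at probe 3236 exceeded that at probe 10606 by 1.70 (exact two-sided permutation p = 0.1 over array means, 0.267 adjusted over 8 pairs of probes), and 5 of 6 shear samples showed a wider gap between these probes than every control. Whether Ier5 passed depended on the probe read.

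Ier2 was higher under shear at its brighter probe but did not pass. At probe 18587 the control samples ran from 0.16 through a median of 0.88 to 1.35, and the shear samples from 1.09 through 1.94 to 2.33. Of the shear samples 5 lay above every control, and replicate 4 lay within the control range. The mean was 0.79 ± 0.49 (SD, n = 6) in control and 1.80 ± 0.48 in shear samples, a difference of 1.01 ± 0.34 (SE) or 2.01-fold (95% interval 0.29 to 1.73 on the log2 scale). The unadjusted p was 0.00948 and the adjusted p = 0.167 (limma). In this fit, whose degrees of freedom count 12 samples, the interval lies above 0 and the probe missed the threshold after adjustment over all features. Over array means the unadjusted p was 0.1 (exact two-sided permutation test), the smallest that test can give.

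The other Ier2 probe, 21325, was dim. Its net fluorescence was 94 to 175 in the 4 controls that had a value and 81 to 202 in the shear samples, where the 5th percentile of all features was 41 to 136 per sample. Control replicates 3 and 4 had no value. The measured controls were at -2.19, -2.06, -1.68 and -1.51, and the shear samples ran from -2.62 through a median of -1.97 to -1.64. The groups overlapped, and the change was -0.23 ± 0.38 (SE; 95% interval -1.05 to 0.59), with adjusted p = 0.839 (limma). It was 0.10 over the Cy5 samples and -0.56 over the Cy3 samples. The change at probe 18587 was 0.72 without control replicates 3 and 4, the samples that probe 21325 lacks. Over the arrays that measured both, the probes differed in their change by 0.95 (exact two-sided permutation p = 0.1, or 0.267 adjusted over 8 pairs of probes, 2 control against 3 shear arrays).

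**Figure D2:**
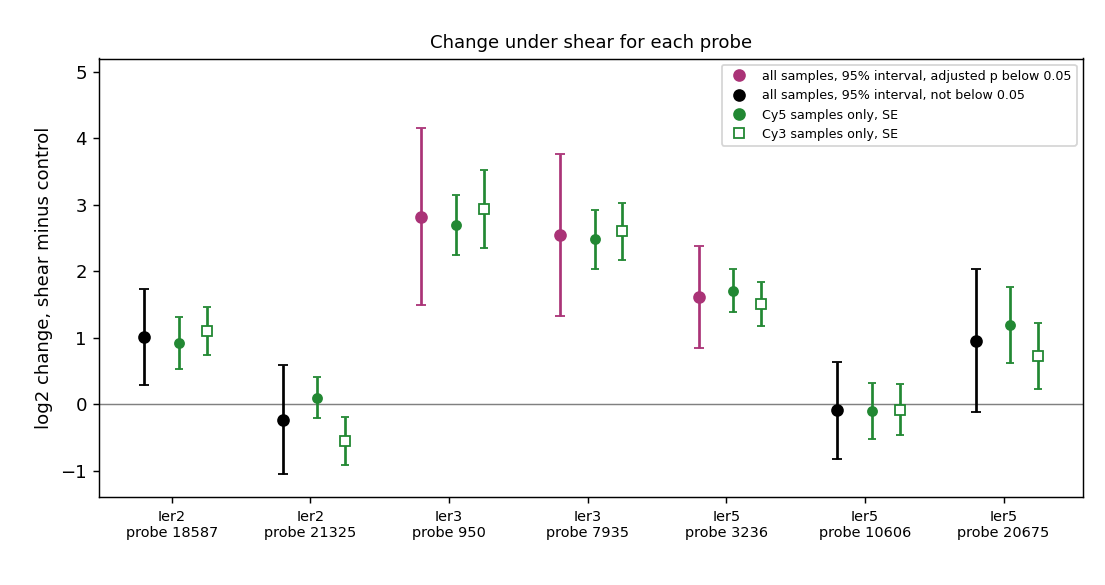
Log2 change (y axis, shear minus control) at each probe in all samples with its 95% interval, in purple where the adjusted p was below 0.05, and within Cy5 or Cy3 samples with the SE. The Cy5 and Cy3 values lie on the same side of 0 at every probe except Ier2 probe 21325.

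Each shear array was then set against the mean of the controls. For Ier3 probe 950 the arrays of shear replicates 1 and 2, 3 and 4, and 5 and 6 stood 3.27, 3.53 and 1.65 above it. Probe 7935 stood 2.46, 2.75 and 2.40 above it, and Ier5 probe 3236 stood 1.88, 1.86 and 1.08 above it. Ier2 probe 18587 had another order, at 1.15, 0.44 and 1.43, with replicates 5 and 6 highest. All 3 shear arrays were above the control mean at these 4 probes. Ier5 probe 20675 was at 1.43 and 1.46 on the arrays of replicates 1 to 4 and at -0.02 on that of replicates 5 and 6, while probe 10606 was at -0.80, -0.20 and 0.72. Ier2 probe 21325 was at 0.10, -0.44 and -0.36. The probes thus did not rank the shear arrays alike, also within Ier5.

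**Figure D3:**
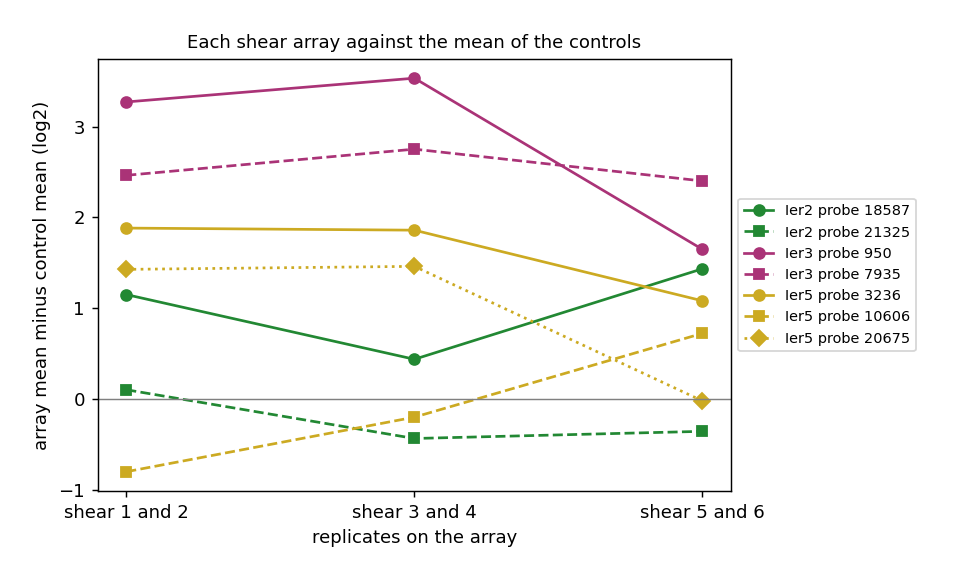
Mean of each shear array minus the mean of the control samples (y axis, log2), for each probe, with lines that only join the values of a probe. The Ier3 probes, Ier5 probe 3236 and Ier2 probe 18587 lie above 0 on all 3 arrays, and Ier5 probe 10606 runs from -0.80 to 0.72.

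With 3 arrays a group, an exact two-sided permutation test over array means cannot give less than p = 0.1. Ier3 probes 950 and 7935, Ier5 probe 3236 and Ier2 probe 18587 each gave this smallest value, Ier5 probe 20675 gave 0.3 and probe 10606 gave 0.9. Ier2 probe 21325 gave 0.5 over 2 control and 3 shear arrays. With each array averaged before the fit, limma gave adjusted p = 0.0452 and 0.0299 for the Ier3 probes and 0.0626 for Ier5 probe 3236. All shear samples lay above all controls at 3 of the 7 probes, against 6.26% of all features tested.

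The change of Ier3 (probe 950) exceeded that of Ier5 (probe 3236) by 1.21 and that of Ier2 (probe 18587) by 1.81, while Ier5 exceeded Ier2 by 0.60. Exact two-sided permutation tests over array means gave p = 0.1, 0.2 and 0.4, and p = 0.267, 0.4 and 0.457 after adjustment over the 8 pairs of probes compared. With 3 arrays a group these tests could not separate the sizes of the members' changes. On the array of shear replicates 5 and 6, Ier2 was above its control mean by 1.43 and Ier3 (probe 950) by 1.65. On that of replicates 3 and 4 the values were 0.44 and 3.53. At Ier3 probe 7935 the same arrays stood 2.40 and 2.75 above the control mean.

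The calls of the members sat near the threshold. Over the alternatives, Ier3 probe 950 lost its call in 14 of 31, probe 7935 in 18 of 30 and Ier5 probe 3236 in 19 of 31, with adjusted p reaching 0.165, 0.158 and 0.150 (limma). The changes themselves stayed between 2.46 and 3.40, 2.16 and 2.83, and 1.41 and 1.87. Leaving out control replicate 1, 2, 3 or 6 or shear replicate 5 ended the call at all 3 probes. So did leaving out control replicate 4 at both Ier3 probes, control replicate 5 at probes 7935 and 3236, shear replicate 3 at both Ier3 probes, and shear replicate 6 at probe 3236. In these fits the adjusted p ran from 0.0516 to 0.0870 (limma). Leaving out a whole array ended the call of probe 3236 for each of the 6 arrays (0.0717 to 0.119), that of probe 950 for the 3 control arrays and shear replicates 3 and 4 (0.0936 to 0.165), and that of probe 7935 for every array but that of shear replicates 1 and 2 (0.0707 to 0.158). Without shear replicate 1, adjusted p was 0.0107 at probe 950 and 0.00639 at probe 7935 (limma). Without shear replicate 2 it was 0.00963 and 0.0164, so leaving out either sample of this array lowered it.

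**Figure D4:**
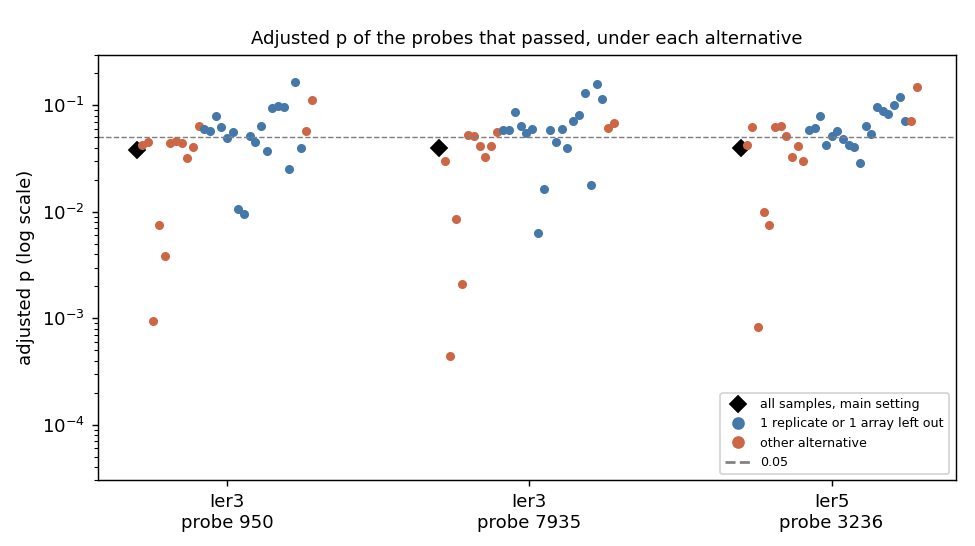
Adjusted p (y axis, log scale) of the Ier3 and Ier5 probes that passed, in the main setting (diamond), with 1 replicate or 1 array left out (blue) and under other alternatives (orange), with the threshold of 0.05 dashed. The main values of 0.0384, 0.0397 and 0.0395 lie just below the line, and many alternatives lie just above it.

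The split between higher and lower calls moved with the scaling. Over all features 310 passed higher and 44 lower, or 87.6% higher, with a median change of 0.10. When each sample was centred on the 17080 features that had 12 values, the median was -0.02, and 274 passed higher and 132 lower, or 67.5% higher. With cyclic loess 287 passed higher and 123 lower, at the same median.  After the centring the changes of the Ier3 probes were 2.68 and 2.40 and that of Ier5 probe 3236 was 1.47, with adjusted p = 0.0447, 0.0528 and 0.0621 (limma). No member changed direction under another scaling.

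Other immediate early genes were read from a list of 72 symbols, 1 chosen probe per gene. This list and those below were chosen with earlier results of these data known. Their shares and medians are therefore a description and not a test. Of the 35 tested, 5 rose and none fell, and 31 had a change above 0 (88.6%, against 61.1% of all 8926 named genes). The list's median was 1.00 against 0.11 for all named genes, of which 1.6% passed higher and 0.19% lower on the chosen probe. The changes of Ier3 (2.82), Ier5 (1.61) and Ier2 (1.01) fall within the list's range, or just above it for Ier3. The other probes of Myc that passed were at 1.81 and 1.76, and the remaining one, at 0.38, did not pass.

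The 5 that rose were of several kinds. Plaur, the urokinase receptor, was at 2.74 ± 0.36 (SE), Zfp36l2, which promotes mRNA decay, at 2.53 ± 0.35, and Ccn1, a matricellular protein, at 2.47 ± 0.48. Maff, a small Maf transcription factor, was at 2.17 ± 0.33 and the growth regulator Myc at 1.85 ± 0.28. Their adjusted p ran from 0.00316 to 0.0199 (limma), lower than those of Ier3 and Ier5. Next by p, without passing, were Gadd45g (1.62), Mcl1 (1.16), Klf6 (1.62) and Errfi1 (1.95). Another probe of Mcl1, an inhibitor of apoptosis, passed at 1.02, and a further one, at 1.31, did not. The AP-1 genes Fos, Jun, Atf3 and Fosl2 were at 0.22, 1.00, 0.79 and 0.32 and did not pass.

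**Figure D5:**
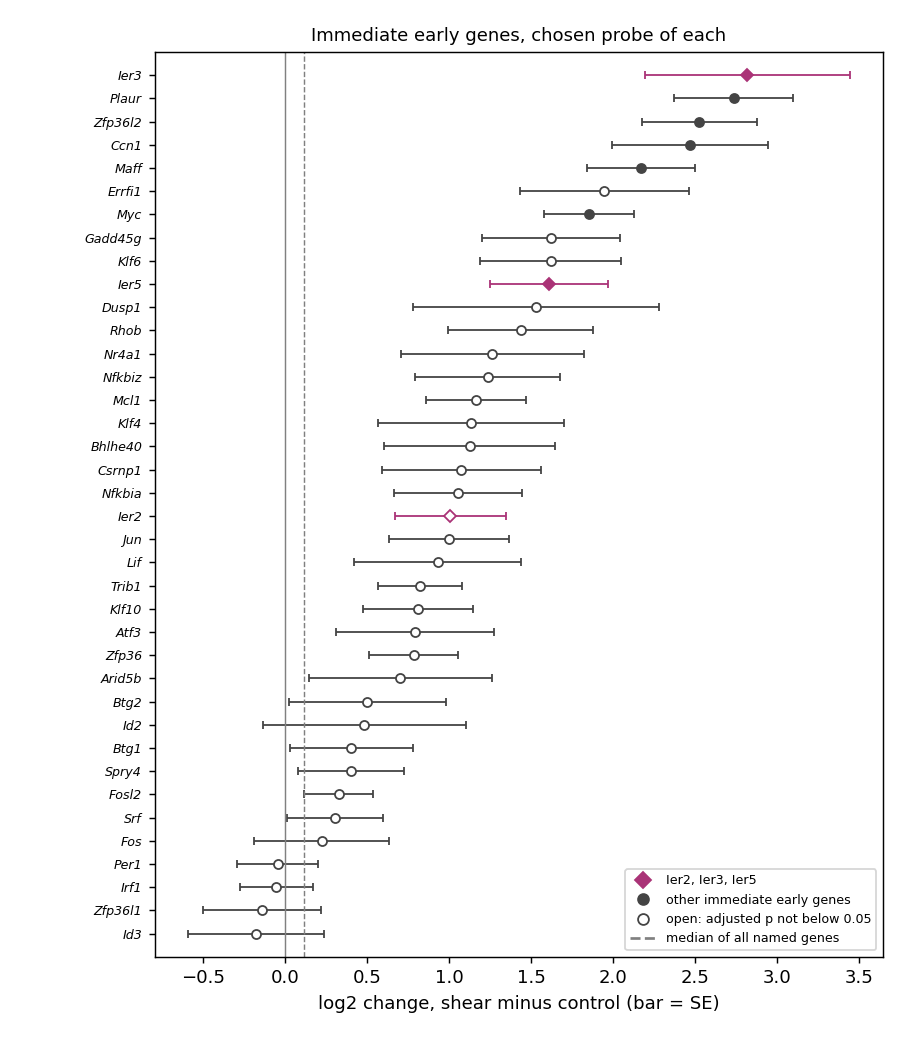
Log2 change (x axis, bar = SE) of Ier2, Ier3 and Ier5 (diamonds) and 35 other immediate early genes (circles) on 1 chosen probe each, filled where the adjusted p was below 0.05. Ier3 is highest at 2.82, Id3 is lowest at -0.18, and the dashed line marks the median of all named genes at 0.11.

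Partners of the members were looked at next, chiefly subunits of PP2A, the phosphatase that Ier3 and Ier5 are known to engage. Of 12 tested genes 1 rose, Ppp2r2d, a B-type regulatory subunit, at 1.48 ± 0.29 (SE) with adjusted p = 0.0199 (limma), and none fell, where 1.6% of all named genes passed higher and 0.19% lower. Its other probe was at 0.96 and did not pass, and the call was lost without control replicates 1 and 2, shear replicates 3 and 4, or shear replicates 5 and 6, and within either dye. The catalytic subunits Ppp2ca (0.93, and 0.41 at its other probe) and Ppp2cb (0.78) did not pass. Neither did the regulatory subunit Ppp2r5b (1.13) or the NF-kB subunit Rela (0.45). The list's median was 0.38, against 0.11 for all named genes, and 7 of the 12 had a change above 0 (58.3%, against 61.1%).

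Of 18 tested targets of heat shock factor none passed on the chosen probe (limma; 6 had an unadjusted p below 0.05), and 17 had a change above 0 (94.4%, against 61.1% of all named genes). Their median was 0.49, against 0.11, and 1.6% of all named genes passed higher. Those with the smallest p were the chaperones Hspa4 (1.16), Hspb8 (1.08), Hspa8 (1.60) and Hsp90aa1 (0.82). Another probe of Hspb8 passed at 1.69 ± 0.30 (SE) and a further one, at 1.17, did not, while another of Hspa8 was at -1.20. Hspb1, a small heat shock protein, was at 1.96 ± 0.88 (SE).

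The genes whose pattern over the 12 samples was nearest to each member were ranked by the root mean square difference of centred log2 values, over 7774 named genes measured in all samples. This is a description, and genes with a like change between groups are favoured by it. Nearest to Ier3 (probe 950) were Smim3, Noct, Il4ra, Pvr and Csf1, with differences of 0.47 to 0.72 against a median of 1.57 over all genes. All 5 passed, with changes of 2.40, 2.83, 2.17, 2.21 and 2.18. They encode a small membrane protein, nocturnin, the interleukin-4 receptor alpha chain, the poliovirus receptor homologue and macrophage colony-stimulating factor.

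Nearest to Ier5 (probe 3236) were Klf6, Palld, Trim16, Rassf1 and Sertad1, at 0.22 to 0.31 against a median of 0.90. The zinc finger factor Klf6 (1.62) did not pass, while the actin-associated palladin gene Palld (1.45), Trim16 (1.77), Rassf1 (1.87) and Sertad1 (1.20) did. Nearest to Ier2 (probe 18587) were Rab3b, Slc3a2, Tmem201, Lmna and Dpf1, at 0.20 to 0.28 against a median of 0.71. Like Ier2 none of these passed, with changes of 0.92, 0.83, 1.06, 0.70 and 1.08. Slc3a2 encodes the heavy chain of an amino acid transporter and Lmna the nuclear lamins A and C.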

How the data were processed

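The deposited table held log2 values made by the authors, 1 for each feature in each sample. With 1 scale per block of 598 features and sample, 100% of the values came out as whole numbers within 0.002, in 576 of 576 combinations, so each value was read as the log2 of a net fluorescence over its block median. Scanner, background correction and the rule for empty spots are steps not given in the sources used here. A shift shared by all genes cannot be seen in such values. Samples of 1 array correlated at 0.953 to 0.982 and other samples of a group at 0.871 to 0.935 (Pearson, over features).

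Symbols were updated through Entrez numbers with RefSeq's gene table. Each probe was a feature, kept if each group had values in 4 or more samples. Limma 3.58.1 (R 4.3.3) modelled group and dye, with arrays as a random block (duplicateCorrelation, 0.727). Each array held 1 group, yet the degrees of freedom count 12 samples, so p-values can be too small. For gene lists and likeness the probe measured in most samples, then the brightest, stood for its gene. The rule named every member probe, the genes of each list that passed with up to 4 more by smallest p, and the 5 genes nearest to each member. Some others are named after their values were seen, namely Col1a2, the AP-1 genes, Id3, Hspb1 and other probes. The members and lists were chosen with earlier results of these data known. Motifs were searched with Python 3.11.15 on both strands.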

Additional observations from a re-analysis of the deposited data

Results flagged for a closer look

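Of 78 groups of samples (up to 6 values each) at the member probes and the other genes named by rule, 2 had a sample whose gap to the next, over the whole range, was above the 95% limit of Dixon's test, where chance gives about 1 in 20 for independent samples. Ier5 probe 3236 was lowest in control replicate 3, at 0.23 against 0.65 in the next control (gap over range 0.630). Noct, the second nearest gene to Ier3, was highest in shear replicate 3, at 1.80 against 1.00 in the next sample (gap over range 0.752).

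Outside the comparison, 43 of 28704 features were measured in each of the 6 shear samples and in none of the controls. Of the 45 listed immediate early genes on the array, 2 were among them. The count of features with the reverse pattern is not given here. Hbegf, which encodes heparin-binding EGF-like growth factor, had a mean log2 value of 2.39 ± 0.45 (SD, n = 6) under shear, and Phlda1 one of -2.83 ± 0.28. Phlda1 was thus near the floor, as the 5th percentile over all features was -2.87 to -2.30 in the shear samples. No source used here gives the rule for empty spots.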

How the results depend on the processing

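There were 31 alternatives. The intensity trend and the robust prior were changed together, and fits within a dye hold 1 sample per array. The 354 features that passed became 232 with 1 probe per gene, 96 with array means, 2664 without the array block, 558 without the dye term, 235 with quantile normalization, 60 in Cy5 and 20 in Cy3 samples only, and 75 (without shear replicates 3 and 4) to 368 with a replicate or array left out. For Ier3 probe 950 the call was lost with trend and robust prior (2.82), in Cy5 (2.70) and in Cy3 samples (2.94), and left-out samples gave 2.46 to 3.40. Probe 7935 lost it when centred on common features (2.40), with cyclic loess (2.38), with trend and robust prior (2.54), in Cy5 (2.48) and in Cy3 samples (2.60), and left-out samples gave 2.16 to 2.83. Ier5 probe 3236 lost it with array means (1.61), common centring (1.47), cyclic loess (1.41), quantile normalization (1.48), in Cy5 (1.71) and in Cy3 samples (1.51), and left-out samples gave 1.47 to 1.87. Directions turned at Ier2 probe 21325 in Cy5 samples (0.10), and at Ier5 probe 10606 without control replicates 5 and 6 (0.10) or shear replicates 1 and 2 (0.26), where left-out samples gave -0.50 to 0.26. Ier5 probe 20675 ran from 0.47 to 1.45. The cause was not tested.

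Of the immediate early genes 20 passed without the array block, 9 without the dye term, 3 in Cy3 samples and 4 to 7 with samples left out. Of the partners 4, 2 and 0 passed in the same settings, 0 in Cy5 samples, 2 over features measured in all samples and 0 to 1 with samples left out. Of the heat shock factor targets 5 passed without the array block, 1 without the dye term and 0 to 1 with samples left out. With the replicate block in place of the array, 2240 features passed, and 19, 4 and 6 genes of these lists. Ier2 probe 18587 then passed (1.01, limma adjusted p = 0.00746), as it did without the array block (0.0272). Same-numbered control and shear samples correlated at -0.09 to 0.12 and 1 of 6 numbers correlated best with its own, so the replicate numbers were not taken to pair samples. Dim signal limits Ier2 probe 21325, with no value in 2 controls.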
